A study of Mus musculus with 32 samples.

Results

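Glutamatergic neurons of the forebrain are recognised by a small set of genes, and 9 of them were followed here through the dendrites and the soma of single hippocampal neurons. They were taken as a named list: Slc17a7, Slc17a6, Neurod1, Neurod2, Neurod6, Tbr1, Emx1, Bhlhe22 and Fezf2. All 9 were found among the 44081 genes with counts on 3′UTRs and among the 23453 genes with counts on exons. The neurons came from C57BL/6 mice at embryonic day 18 and were kept in culture for 15 days, with no treatment named in the labels. The dendrites of each of 16 neurons were cut from the cell body and drawn into a separate tube from the soma, which gave 32 libraries in pairs. RNA with a poly-A tail was amplified by the aRNA method, which copies RNA by in vitro transcription, in 3 rounds for neurons 1 to 4 and in 2 rounds for the other 12. Each library therefore stands for the compartment of 1 cell. The compartments share the strain, the age, the culture time and, within a neuron, the number of rounds.

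A glutamatergic neuron loads glutamate into synaptic vesicles with a vesicular glutamate transporter, of which Slc17a7 (VGLUT1) and Slc17a6 (VGLUT2) are the common forms in the brain. Its identity is laid down by transcription factors. Emx1 marks the dorsal telencephalon from which the excitatory cells of cortex and hippocampus arise, the basic helix-loop-helix factors of the Neurod family and Bhlhe22 act as such cells leave the cycle and mature, and Tbr1 and Fezf2 specify deep-layer projection neurons of the cortex. GABAergic interneurons of the hippocampus come from the ventral telencephalon. They make GABA with the decarboxylases Gad1 and Gad2 and load it into vesicles with Slc32a1.

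The libraries held 646521 to 6954420 reads on 3′UTRs in dendrites and 925525 to 21169974 in somas. Levels are given in RPM, the reads of a gene per 1000000 reads counted on 3′UTRs in the same library, and a gene was called detected from 10 reads. The limit that a count of 0 allows, 3 reads, was 0.431 to 4.64 RPM in dendrites and 0.142 to 3.24 RPM in somas, for counting error only, since the reads carry no molecular identifiers. The dendrites of neurons 15 and 16 stood apart, with 1570 and 2485 genes detected against a dendrite median of 6052.5. Mitochondrially encoded genes took 35.8% and 32.4% of their reads. The median of this share was 13.5% over all dendrites and 1.05% over all somas. The part of this share in the differences between the compartments was not tested. The neuronal genes Map2, Rbfox3, Snap25, Syt1, Tubb3 and Stmn2 together had 2060 to 10975 RPM in dendrites and 3368 to 12027 RPM in somas.

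The genes were read mainly from their 3′ ends. Slc17a7 lies on chromosome 7 (45163949 to 45176142, plus strand, mm10) and its annotated 3′UTR is 1101 bases long. Of its 2923 reads on the 3′UTR, 99.2% fell in the last 500 bases, where the counts of 3′ ends are kept. This share was summed over all counted ends of a gene, of which Tbr1 had 4, Fezf2 had 2 and each other member had 1. It was 98.7% for Tbr1, 91.6% for Neurod6, 83.7% for Neurod1 and 73.2% for Fezf2, and all 38 reads of Emx1 were there. Ends and 3′UTRs were counted on the authors' annotation, while lengths and sequences here are from GENCODE. A printed end may therefore differ from a counted one. The GENCODE 3′UTR of Fezf2, of 405 bases, is shorter than 500, so its counted 3′UTR was not that one alone. The median over the 10880 genes that entered the compartment test was 95.5%, with quartiles of 77.8% and 99.4%. That median includes genes with several counted ends, so it is not a like measure for a gene with 1. Neurod2 was the lowest of the 9, at 6.68%.

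The last 30 bases of these transcripts (GENCODE on GRCm38, the build named mm10 in the files) are shown for 4 genes whose counts differ in this way, 5′ to 3′ on the gene's strand with the poly-A signal hexamer AATAAA or ATTAAA in capitals. The windows are chr7:45176113-45176142 (plus strand) for Slc17a7, chr6:55677822-55677851 (minus) for Neurod6, chr2:79452521-79452550 (minus) for Neurod1 and chr11:98325415-98325444 (minus) for Neurod2.
Slc17a7: ctcccAATAAAcgctctggtgtacggatca
Neurod6: aaagcaATTAAAcatagatatttccactta
Neurod1: ttaaacattaggAATAAAatatagagttga
Neurod2: aatatttatgtaaatgagatgcaaagcaga
One of these hexamers, searched on the transcript strand only, is present in the last 30 bases of 62.6% of 21873 genes. In Slc17a7 it is followed by 19 bases, in Neurod6 by 18 and in Neurod1 by 12. The Neurod2 window holds neither, and the nearest AATAAA of its 3′UTR of 1773 bases is followed by 28 bases. Its other copies are followed by 989 and 1009 bases. Of the members with a 3′UTR over 500 bases, Neurod2 has the longest run of A ahead of the last 500 bases. This run of 12 A lies upstream of these copies, 1112 bases before the transcript end (chr11:98326518-98326547, minus strand, the run in capitals).
Neurod2 A run: tacaaaaggAAAAAAAAAAAAgaaagaaag
Among 14203 genes with a 3′UTR over 500 bases, 8.49% have a run of 12 or more A ahead of their last 500 bases. The position of a read inside a 3′UTR is not in the counts, so no read was assigned to the run or to the inner hexamers, and their part in the Neurod2 counts was not tested.

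Neurod2 was not low at its end in every library. Among its 18 libraries with at least 10 reads, 9 had no read in the last 500 bases, and these 9 held 6590 of its 8123 reads. Both compartments of neuron 15 were among them. Without neuron 15 the share was 30.1%. In Slc17a6 the share was 59.9%, and it was 86.1% without the dendrites of neuron 1, whose 160 reads all lay outside the last 500 bases. Bhlhe22 had 78.5% of its soma reads but 15.8% of its dendrite reads in the last 500 bases, and 39.3% of its dendrite reads without neuron 8. Neurod6 differed little between the compartments, with 92.2% in dendrites and 91.5% in somas.

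**Figure D1:**
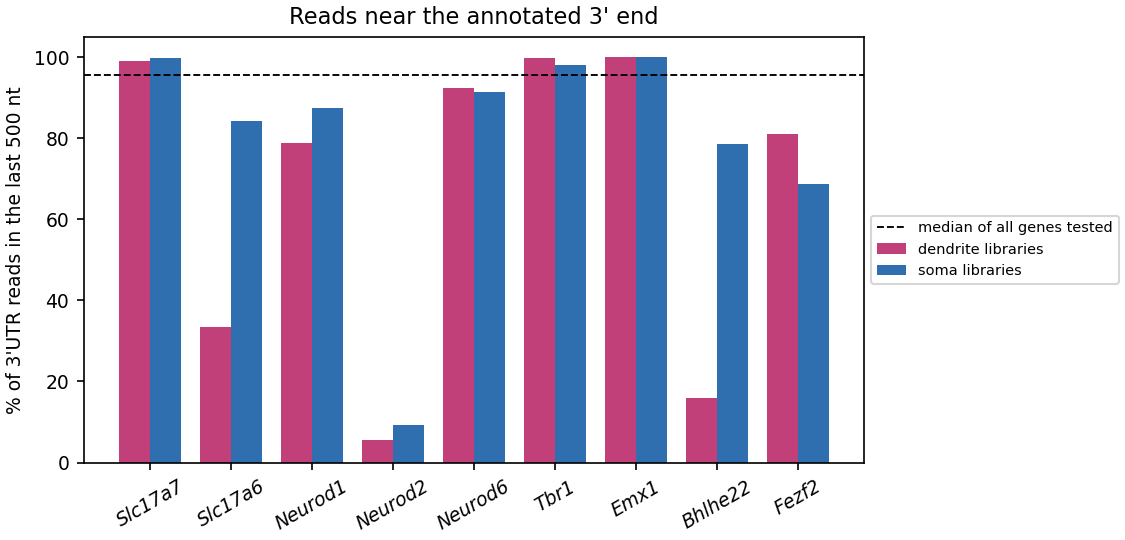
Percent of the reads on each gene's 3′UTR that fell in the last 500 nt of an annotated 3′ end, for all dendrite reads and all soma reads summed; the dashed line is the median of the genes tested (95.5%). Slc17a7, Neurod6, Tbr1 and Emx1 are above 90% in both compartments, while Neurod2 is below 10% in both, and Bhlhe22 and Slc17a6 are below 50% in dendrites only. Emx1 rests on 38 reads in all.

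Slc17a7, the main vesicular glutamate transporter of cortex and hippocampus, was the most widely detected of the 9 genes. Its level in dendrites was 0 RPM at the lowest, 49.1 at the median and 288 at the highest, in neuron 14. In somas it was 0, 4.84 and 183 RPM, the highest in neuron 2. The ranges overlapped from 0 up to 183 RPM, and 3 dendrites and 3 somas were at 0. It was detected in 13 of 16 dendrites and 10 of 16 somas, in both compartments of 9 neurons, by the dendrites alone in 4 and by the soma alone in 1. In reads, the dendrites of neuron 9 had 634 and its soma 142, while the dendrites of neuron 13 had 170 and its soma 0. Of the 15 neurons with a read, 12 had the higher level in their dendrites. At an equal depth of 646521 reads per library, 12.8 dendrites and 4.41 somas would be expected to reach 10 reads.

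Slc17a6, the transporter of many subcortical neurons and of immature cortical ones, was near absent. It reached 10 reads in the dendrites of neurons 1 and 5, with 160 and 79 reads, and in the soma of neuron 7, with 266 reads. Both medians were 0 RPM, and the highest levels were 157 RPM in dendrites and 45.4 RPM in somas. No neuron had 10 reads of it in both compartments. Slc17a8 (VGLUT3), the remaining vesicular glutamate transporter, was detected in 2 dendrites and 1 soma, and with counts on exons in 5 dendrites and 2 somas.

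The Neurod genes code for basic helix-loop-helix activators that drive neuronal differentiation, and Neurod6 is used as a marker of pyramidal cells. Neurod6 had 0, 9.23 and 187 RPM in dendrites at the lowest, median and highest, and 0, 15.8 and 1798 RPM in somas. The highest soma was that of neuron 2, with 1664 reads, and the next in reads was that of neuron 14, with 943. It was detected in 8 dendrites and 8 somas. In 6 neurons both compartments reached 10 reads and in another 6 neither did. A neuron either had reads in both compartments (11 neurons) or in neither (5), a split that counts from 1 read. Counts on exons gave 11 neurons with reads in both, 1 in the dendrites alone and 4 in neither.

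Neurod1 acts early in this series of factors, also in the granule cells of the dentate gyrus. Its levels were 0, 20.1 and 143 RPM in dendrites and 0, 2.07 and 197 RPM in somas. It was detected in 8 of each, and in both compartments of 4 neurons (6 with counts on exons). The dendrites of neuron 13 had 181 reads and those of neuron 4 had 118, with no read in either soma, while the soma of neuron 2 had 182 reads and its dendrites 0. Counts on exons added the somas of neurons 1 and 10, with 50 and 41 reads, which brought the somas to 10.

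Neurod2, a factor of maturing excitatory neurons, had a read in every neuron, and in both compartments of 8. Its levels were 0, 20.3 and 2200 RPM in dendrites and 0, 2.00 and 132 RPM in somas. The highest dendrite was neuron 15, whose 4918 reads made up 88.2% of all dendrite reads of the gene. The soma of neuron 15 was also the highest soma, with 1399 reads. It was detected in 10 dendrites and 8 somas. With neurons 15 and 16 left out, it was detected in 9 of 14 dendrites and 7 of 14 somas, and the medians stayed at 20.3 and 2.00 RPM.

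The regional and projection-neuron factors were rarer. Bhlhe22, which acts in the postmitotic patterning of the cortex, had 0, 1.52 and 200 RPM in dendrites and 0, 0.722 and 744 RPM in somas, and was detected in 7 of each. The highest dendrite was that of neuron 8, with 484 reads, and the highest soma that of neuron 2, with 689. Fezf2, a selector of subcortical projection neurons, had 0, 1.84 and 52.1 RPM in dendrites and 0, 0.445 and 66.9 RPM in somas, and was detected in 7 and 5. The soma of neuron 14 held 433 of its 570 soma reads. For both genes the ranges in dendrites and somas overlapped from 0 upward. Without neurons 15 and 16 the medians of Bhlhe22 were 2.63 RPM in dendrites and 3.20 RPM in somas, so the order of its medians turned around.

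Tbr1, a T-box factor of early-born glutamatergic neurons, had few detections in either compartment. It was detected in 2 dendrites, neurons 5 and 9 with 60 and 587 reads, and in 6 somas, with 378 reads in neuron 2, 355 in neuron 9, 118 in neuron 7, 90 in neuron 16, 50 in neuron 10 and 18 in neuron 14. At the equal depth of 646521 reads, 2 dendrites and 2.54 somas would be expected to reach 10 reads. Its medians were 0 RPM in dendrites and 0.0427 RPM in somas. Emx1, a homeobox gene of the dorsal telencephalon, was the rarest, with 38 reads in all. Of these, 25 were in the soma of neuron 5, the only library in which it was detected, and 26 of the 32 libraries had none.

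Depth and the libraries that stood apart moved several of these values. At the equal depth the expected detections were 8.00 dendrites and 4.80 somas for Neurod1, 8.44 and 4.00 for Neurod2, 7.23 and 7.99 for Neurod6, 4.39 and 4.69 for Bhlhe22, and 5.32 and 1.37 for Fezf2. With neurons 15 and 16 left out, the median of Neurod1 was 39.5 RPM in dendrites and 6.09 RPM in somas, and that of Neurod6 was 19.2 and 31.4 RPM. That of Fezf2 was 4.40 and 0.828 RPM. These medians were over 1.5 times those of all 16 neurons, while the order of the compartments stayed for these 3 genes.

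**Figure D2:**
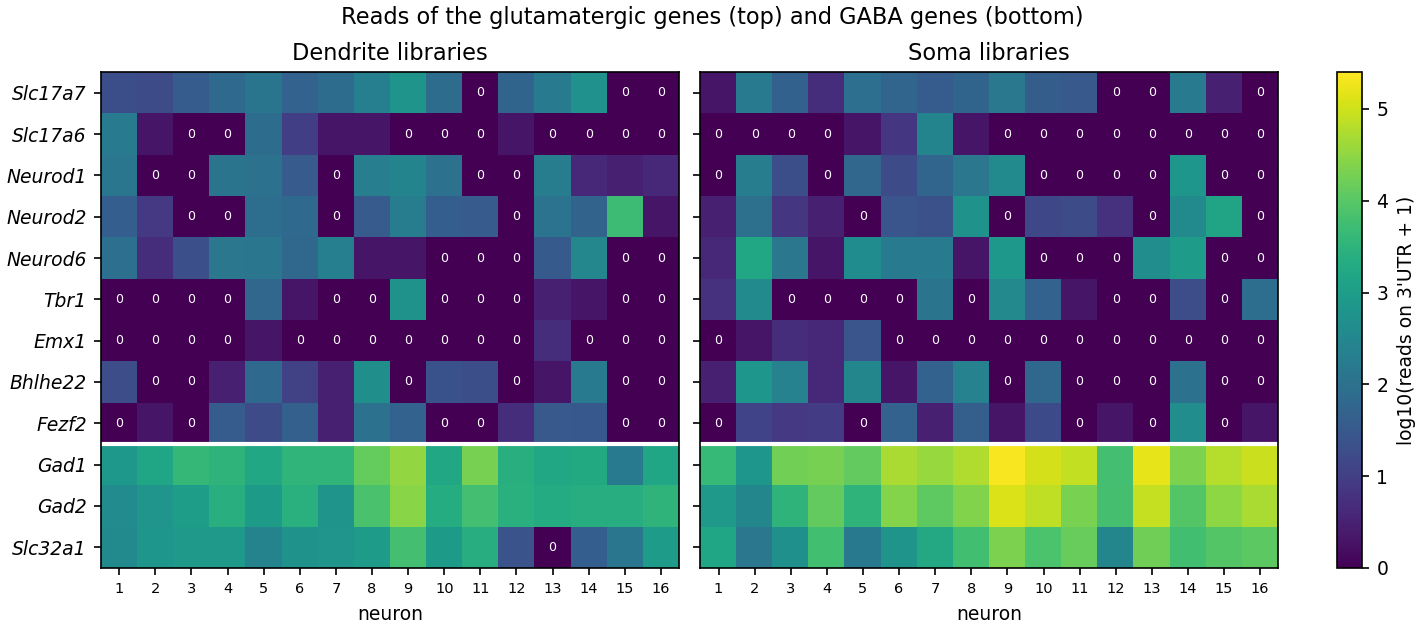
Reads on 3′UTRs in each library, as log10(reads + 1), for the 9 glutamatergic genes (above the white line) and 3 GABA genes (below it), with neurons 1 to 16 along the x axis in dendrites (left) and somas (right) and a 0 in cells without a read. The glutamatergic genes are scattered and often at 0, whereas Gad1 and Gad2 are high in all 32 libraries and Slc32a1 is missing in the dendrites of neuron 13 alone.

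Levels of different genes were set side by side on the counts of the last 500 nt of the most-read 3′ end of each gene. The lengths are close but not equal, since nearer ends were merged, which can make a region longer. The GENCODE 3′UTRs of Fezf2 and Emx1, of 405 and 285 bases, are shorter, though the counted regions may differ from them. The most-read end held all end reads of 7 members, 98.2% of those of Tbr1 and 83.3% of those of Fezf2, whose level is therefore understated. In dendrites the medians were 49.1 RPM for Slc17a7, 6.26 for Neurod6, 1.40 for Neurod1, 0.791 for Fezf2 and 0.445 for Bhlhe22. In somas they were 11.6 RPM for Neurod6, 4.84 for Slc17a7, 1.22 for Neurod1, 0.379 for Bhlhe22 and 0.0853 for Fezf2. The medians of Slc17a6, Neurod2, Tbr1 and Emx1 were 0 in both compartments, in Neurod2 with most reads lying outside this region. Every gene had a lowest value of 0, so that the ranges of all neighbours in these orders overlapped.

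The 9 genes did not come together as a set in most cells. A dendrite library had between 0 and 8 of them detected, with a median of 4, and a soma between 0 and 7, also with a median of 4. Neuron 5 was the only one with all 9 detected in one compartment or the other. Neurons 12, 15 and 16 had 1 each: Slc17a7 in neuron 12, Neurod2 in neuron 15 and Tbr1 in neuron 16. In the neurons of 2 rounds the median was 4.5 genes in dendrites and 4.5 in somas (n = 12), and in those of 3 rounds it was 3 and 2 (n = 4), within the range of the others. This difference was not tested.

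The soma of neuron 2 stood out. It had 7 members detected and a sum of 3449 RPM over the 9 genes, against a soma median of 77.5 RPM, and it held the highest soma level of Slc17a7, Neurod1, Neurod6, Tbr1 and Bhlhe22. It was also the soma with the fewest reads, 925525, and came from 3 rounds of amplification. The dendrites of the same neuron had 1 member detected and 30 reads of all 9 together.

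Genes of GABA synthesis and packaging were far above the glutamatergic genes in the same libraries. Gad1, which makes most of the GABA of a neuron, was detected in all 32 libraries, with 69.8, 1799 and 5460 RPM at the lowest, median and highest in dendrites and 756, 6568 and 12894 RPM in somas. Gad2 was also detected in all 32, at a median of 1245 RPM in dendrites and 2444 RPM in somas. Slc32a1, the vesicular GABA transporter, was detected in 31, at medians of 449 and 786 RPM, with no read in the dendrites of neuron 13. Both decarboxylases were therefore present in every soma and every dendrite sample.

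The sum of Gad1, Gad2 and Slc32a1 was above the sum of Slc17a6 and Slc17a7 in 16 of 16 dendrites and 16 of 16 somas, and again in all 32 with counts on exons. The GABA genes had 1174 to 9617 RPM in dendrites, with a median of 3401, against 0 to 288 RPM with a median of 61.2 for the glutamate transporters. In somas the medians were 9354 RPM and 5.04 RPM. The ranges of the 2 sums did not overlap in either compartment. On exon counts the medians were 4679 and 72.9 RPM in dendrites and 9881 and 5.06 RPM in somas.

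The sums of all 9 members stayed below those 3 GABA genes in 15 of 16 dendrites and 15 of 16 somas. The exceptions were the dendrites of neuron 15, through Neurod2, and the soma of neuron 2. Among the 13 dendrites with reads of the glutamate transporters there were 8.07 to 161 GABA reads per transporter read, fewest in neuron 14. Among the 11 somas with more than 3 transporter reads there were 6.75 to 9483.5, fewest in neuron 2, whose GABA sum of 1233 RPM was also the lowest of the somas. Gene lengths enter these sums. On the last 500 nt alone, Gad1 had medians of 1763 and 6477 RPM, Gad2 of 1044 and 2147 RPM and Slc32a1 of 449 and 786 RPM, in dendrites and somas, against 49.1 and 4.84 RPM for Slc17a7. The labels call the cells hippocampal neurons and give no transmitter type.

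**Figure D3:**
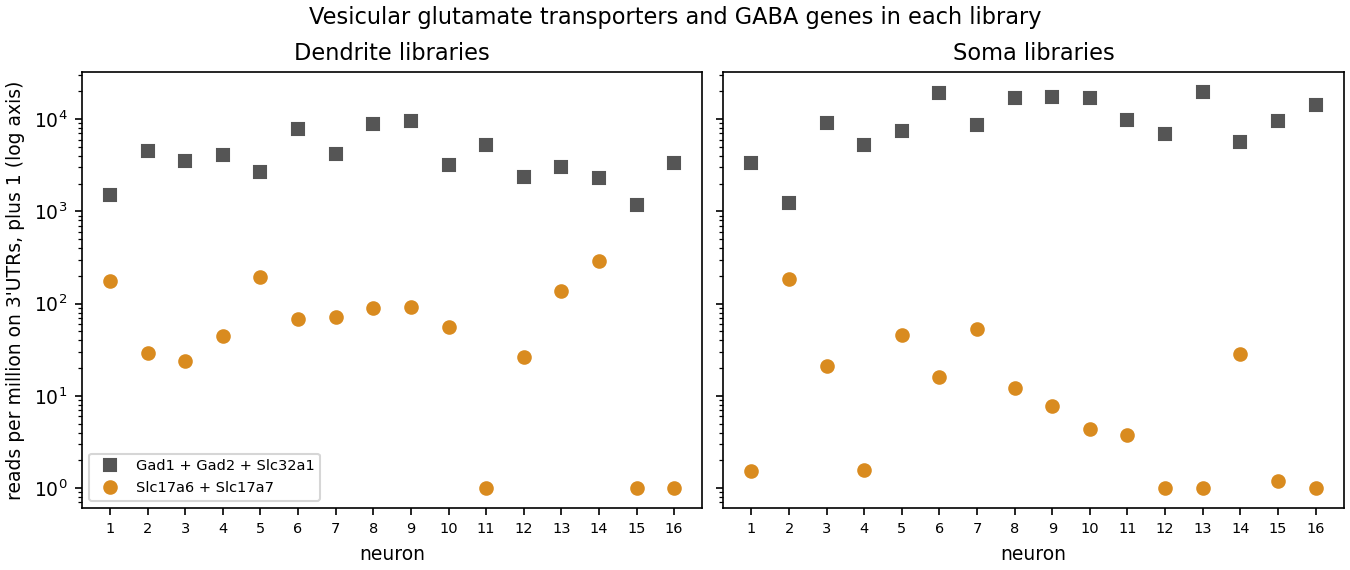
Summed RPM on 3′UTRs, plus 1, on a log axis, for the vesicular glutamate transporters Slc17a6 and Slc17a7 (orange circles) and for Gad1, Gad2 and Slc32a1 (grey squares), by neuron, in dendrites (left) and somas (right). The squares lie above the circles in all 32 libraries, and the gap is narrowest in the soma of neuron 2 and in the dendrites of neurons 14 and 1.

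Other markers of interneurons were present as well. Of the 15 genes of the interneuron list, Npy, a neuropeptide, was detected in 12 dendrites and 16 somas, Reln, an extracellular matrix protein of interneurons, in 16 and 16, and Lhx6, a factor of interneurons from the medial ganglionic eminence, in 13 and 15. Sst and Vip, markers of other interneuron classes, were detected in 0 and 0 and in 0 and 2. The summed level of the list was 2513 to 13096 RPM in dendrites and 2111 to 29650 RPM in somas. Of its 12 genes in the compartment test described next, edgeR called Pvalb higher in dendrites (log2 fold change 2.39, adjusted p = 0.0439). Pvalb is the calcium-binding protein of fast-spiking interneurons. Called higher in somas were 3 genes, among them Gad1 and Dlx6, a ventral telencephalic factor. Of all genes tested, 0.827% were called toward dendrites and 5.71% toward somas. The median of the 12 was -1.52, close to the -1.49 of all genes. Of the 6 neuronal genes, Map2, a dendritic microtubule protein, was the one called, higher in dendrites, with a median of -1.18 over the 6.

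The design compares the dendrites of a neuron with its own soma. A gene entered the test when 16 or more of the 32 libraries held a read of it. Of the members, Slc17a7, Neurod1, Neurod2, Neurod6, Bhlhe22 and Fezf2 passed, and Slc17a6, Tbr1 and Emx1, with reads in 11, 13 and 6 libraries, did not. The edgeR quasi-likelihood test with the neuron as a block called 0 of the 6 members in either direction at an adjusted p of at most 0.05. Of the 10880 genes tested it called 0.827% toward dendrites and 5.71% toward somas. With p under 0.05 before adjustment, 1 of the 6 stood higher in dendrites, against 3.55% of all genes, and 0 in somas, against 26.7%. DESeq2 called 1 of the 6 toward dendrites, against 4.26% of all genes, and 0 toward somas, against 46.2%.

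That gene was Slc17a7. Its log2 fold change, dendrites over somas, was 2.97 (SE 1.28) in edgeR with an adjusted p of 0.117, and 2.82 (SE 0.78) in DESeq2 with an adjusted p of 0.00124. It stood at the 98.7th percentile of the fold changes of all genes tested. The call thus depended on the tool. The spread left after the block for the neuron was wide, with a common dispersion of 2.07 in edgeR. Without the block it was 2.77.

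The other log2 fold changes were also above 0, none past the threshold. They were 2.65 (SE 1.76) for Neurod1, 2.07 (SE 1.49) for Neurod2, 1.68 (SE 1.48) for Fezf2, 1.38 (SE 1.32) for Bhlhe22 and 0.16 (SE 1.21) for Neurod6. Their adjusted p-values in edgeR ran from 0.288 to 0.936, and none was shown to differ between the compartments or to be equal. All 6 members were above 0, as were 21.2% of all genes. The median over the 6 was 1.88 and that over all genes was -1.49, so that most genes stood lower in dendrites on this scale. Relative to the median gene, the 6 were higher by 4.47 (Slc17a7), 4.14 (Neurod1), 3.56 (Neurod2), 3.18 (Fezf2), 2.87 (Bhlhe22) and 1.66 (Neurod6) on the log2 scale.

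Since the median gene was not at 0, the dendrite libraries were also rescaled to bring it there. Slc17a7 was then called higher in dendrites, with a log2 fold change of 4.49 (SE 1.31) and an adjusted p of 0.0271 in edgeR, and it was again the only member called. Of all genes this scaling called 590 (5.42%) toward dendrites and 89 (0.818%) toward somas, compared with 90 and 621 without it. The 3 genes left out by the filter were fitted without it. Their log2 fold changes were 1.92 (SE 1.32) for Slc17a6, -1.82 (SE 1.90) for Tbr1 and -1.19 (SE 1.54) for Emx1, with adjusted p-values in edgeR of 0.556, 0.744 and 0.790.

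**Figure D4:**
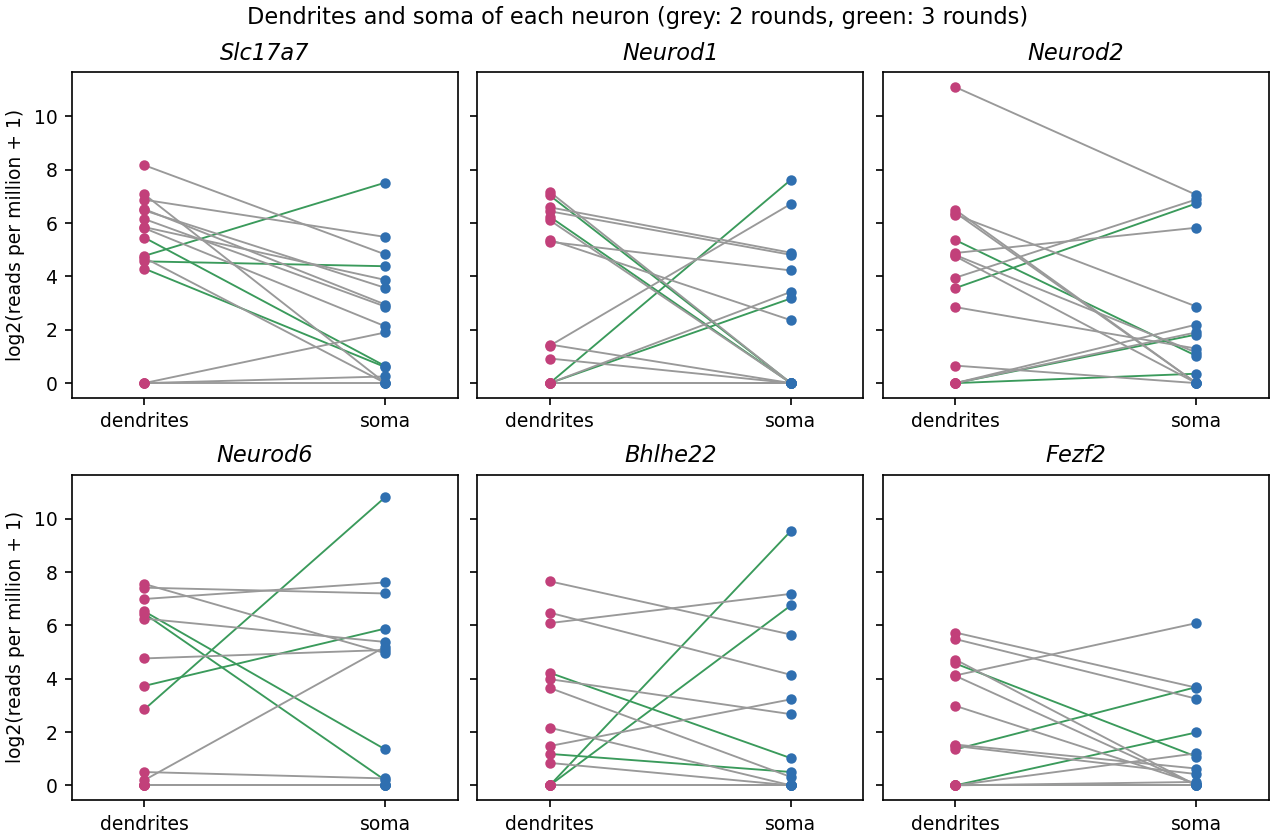
Level of the 6 tested genes in the dendrites and the soma of each neuron, as log2(RPM + 1), with a line joining the compartments of a neuron (grey for 2 rounds of amplification, green for 3). The lines for Slc17a7 mostly fall from dendrites to soma, in 12 of 15 neurons with a read, while those of Neurod6 run both ways, 6 of 11 falling.

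**Figure D5:**
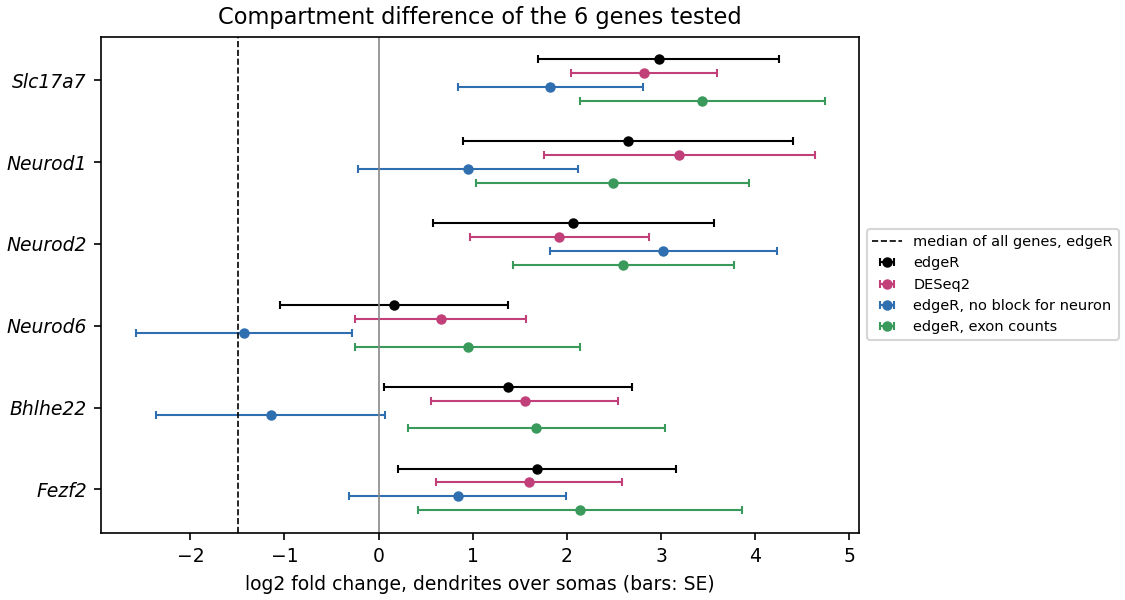
Log2 fold change, dendrites over somas, of the 6 tested genes with its SE, from edgeR with the neuron as a block (black), DESeq2 (pink), edgeR without the block (blue) and edgeR on exon counts (green); the dashed line is the median of all genes in the first fit (-1.49). Slc17a7 lies at or above 1.82 in all 4, and Neurod6 and Bhlhe22 fall below 0 without the block.

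By neuron, the dendrite level was the higher one in 12 of 15 neurons for Slc17a7, 6 of 7 for Slc17a6, 10 of 14 for Neurod1, 9 of 16 for Neurod2, 8 of 12 for Bhlhe22, 8 of 13 for Fezf2 and 6 of 11 for Neurod6. It was the higher one in 4 of 11 for Tbr1 and 1 of 5 for Emx1. Gad1 and Gad2 were lower in dendrites in 15 of 16 neurons each, and Slc32a1 in 11 of 16. On exon counts Gad1 was lower in 15, Gad2 in 13 and Slc32a1 in 10. In the edgeR fit Gad2 and Slc32a1 were not called, at -0.74 and -0.63 (adjusted p = 0.150 and 0.528). Gad1 fell in the edgeR fit, with a log2 fold change of -1.58 (SE 0.38) and an adjusted p of 0.0148, close to the median gene. Depth differed between the compartments, with medians of 1605714 and 6165691 reads in dendrites and somas, and its part in these differences was not tested.

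Markers of glia were read from the same fit. The astrocyte list (Gfap, Aqp4, Aldh1l1, Slc1a3, S100b, Gjb6) summed to 0 to 435 RPM in dendrites, with a median of 50.3, and to 0 to 122 RPM in somas, with a median of 11.5. Only 2 of its 6 genes entered the test, 0 were called, and their median log2 fold change was 1.97. The oligodendrocyte list (6 genes, among them Mbp, Mog, Mobp, Olig1 and Olig2) summed to 0 to 714 RPM in dendrites, at a median of 22.9, and to 0 to 319 RPM in somas, at a median of 22.2. Of its genes 2 were tested and 0 called, with a median of 2.12. Microglial genes reached 379 RPM in 1 dendrite and at most 17.8 RPM in somas, and endothelial genes at most 102 and 129 RPM. Gjb6 and Cldn5 had no read. The part of these cell types in the level of Slc17a7 was not tested.

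Among other regulators of forebrain projection neurons, 19 of 28 genes were tested, 0 were called toward dendrites and 1 toward somas, and their median log2 fold change was -0.37. The one called was Id2, an inhibitor of basic helix-loop-helix factors, at -2.27 (SE 0.57, adjusted p = 0.0177 in edgeR). Lhx2, a LIM-homeobox factor of the cortex, was detected in 8 dendrites and 10 somas, Emx2 in 2 and 3 and Pax6 in 1 and 4. Emx2 and Pax6, factors of dorsal progenitors, were thus seen in few libraries.

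Genes of glutamate supply and uptake were largely present: 10 of 12 were tested, 0 were called either way, and the median was -0.76. Glud1, glutamate dehydrogenase, was detected in 13 dendrites and 16 somas, and Gls2, a glutaminase, in 3 and 7. Of the pyramidal cell genes 11 of 14 were tested, 0 were called, and the median was -0.80. Camk2a, a kinase gene with a well-known dendritic mRNA, was detected in 13 dendrites (median 26.7 RPM) and 12 somas (median 13.1 RPM), and Camk2b in 15 and 16. Nrgn, a calmodulin-binding protein of pyramidal cell spines, was detected in 10 and 6, and Cck in 7 and 11.

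Over the 16 somas, the genes whose levels ran most like a member were sought among 9252 genes with at least 10 reads in at least 8 somas, for Slc17a7 and Neurod6. For Slc17a7 they were Olig1 (Spearman's rho 0.92), Neurod1 (0.89) and Nnat (0.88), and for Neurod6 they were Olig1 (0.85), Fam131a (0.83) and Neurod1 (0.81). Slc17a7 and Neurod6 had a rho of 0.80 with each other. Slc17a7 had 0.81 with Bhlhe22, 0.31 with Neurod2 and 0.18 with Tbr1. These values describe ranks over 16 libraries that share the amplification and differ in depth. Olig1, best known from the oligodendrocyte lineage, was detected in 9 dendrites and 9 somas, while Mbp was detected in 4 and 4, Olig2 in 1 and 1, Mobp in 2 and 0 and Mog in 1 and 0.

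Counts on exons gave nearly the same ranking of libraries as counts on 3′UTRs. The Spearman correlation over the 32 libraries was 0.94 to 1.00 for 7 of the members, 0.88 for Tbr1 and 0.77 for Slc17a6. Exon counts brought 4 more detections, in Neurod1 (2), Slc17a6 (1) and Tbr1 (1), and took none away.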

How the data were processed

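Dendrites and somas of 16 neurons (32 libraries, strand-specific) were analysed. The authors aligned trimmed reads to mm10 with STAR (2.4.0 in the submitters' processing notes) and used VERSE to count reads that mapped to 1 place. The deposited values are raw read counts: on the union of the 3′UTRs of 44081 genes, on 74532 3′ ends (the last 500 nt, nearer ends merged), and on exons of 23453 genes and 92 spike-ins. The gene annotation behind the exon counts is not given in the sources used here. No 2 libraries held identical counts (0 pairs).

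Groups and pairs came from the labels for compartment and cell number. The cells were separate neurons from several cultures, which the labels do not assign, so culture could not be a term. Genes with a read in 16 or more libraries were compared on the 3′UTR counts with edgeR 4.0.16 in R 4.3.3 (TMM, quasi-likelihood test with robust fit, neuron as a block, Benjamini-Hochberg adjusted p of at most 0.05). DESeq2 1.42.0 was the main alternative. Other values were computed with Python 3.11, pandas 2.3.3, NumPy 2.4.6 and SciPy 1.17.1, and figures drawn with matplotlib 3.10.9. Precision was taken from the spread between neurons of the difference between dendrites and soma. Sequences came from GENCODE M21, from the protein-coding transcript with the longest 3′UTR. The authors counted 3′UTRs and 3′ ends on Ensembl and UCSC genes with added 3′UTRs, so these ends may differ from the printed ones.

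The test was checked on simulated counts for this comparison (10761 genes run, 196 of them changed by 4 on the log2 scale). It called 74 of these, all in the right direction, and 1 unchanged gene. The pairing comes from the cells. With genes centred on their compartment means, dendrites correlated with their own soma at 0.0854 ± 0.0766 (SD, n = 16) and with the soma of another neuron at -0.00527 ± 0.0529 (SD, n = 240).

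The 9 members and all lists were chosen with earlier results of these data known. Every member is named. From each other list the genes that pass the test are named, and otherwise the first 4 of the list; a few genes of these lists that enter their counts, sums and medians are not reported here by name. Genes singled out beyond this (Npy, Reln, Lhx6, Sst, Vip, Slc32a1, Gad2, Olig1 and the other glial genes given by name) come from the marker lists.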

Additional observations from a re-analysis of the deposited data

Results flagged for a closer look

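The 4 libraries of neurons 1 and 2 are labelled as having no spike-in, yet they held 59 to 80 reads on spike-in sequences. The other 28 libraries held 3083 to 283471. These reads were a signal in data that no comparison above uses, and they do not enter the values of the 9 genes.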

How the results depend on the processing

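Genes called by edgeR numbered 90 higher in dendrites and 621 higher in somas. In the same order, other settings gave 463 and 5029 (DESeq2), 590 and 89 (dendrites rescaled), 15 and 143 (no filter on low counts), 43 and 354 (2 rounds alone) and 4 and 1 (3 rounds alone). Counts higher in somas alone moved by over 1.5 times with RLE factors (1008), a filter of 10 reads in 16 libraries (181), exon counts (257), and neurons 15 and 16 left out (101, a setting chosen after seeing the data). Leaving out each neuron in turn gave 56 to 120 and 130 to 990, and the calls higher in somas were fewest without neuron 16 and most without neuron 5. Without the replicate block for the neuron, 157 and 77 genes were called, and Neurod6 and Bhlhe22 had log2 fold changes of -1.43 and -1.15, neither called; the block changed no call of a member. Members called higher in dendrites were 1 with DESeq2 and 1 with rescaled dendrites, Slc17a7 both times, and 0 in all other settings (0 to 0 when each neuron was left out); 0 were called higher in somas in any. Slc17a7 kept its direction in all settings, with 2.68 to 3.51 and adjusted p-values of 0.0811 to 0.184 in edgeR when a neuron was left out. Neurod6 was -0.0181 in the neurons of 2 rounds and ran from -0.29 to 0.73 with a neuron left out, below 0 without neuron 1 (-0.03), 4 (-0.29) or 7 (-0.20). In the 4 neurons of 3 rounds alone, Neurod2 was -1.68, Bhlhe22 -2.88 and Fezf2 -1.21, none called. The causes were not tested. Of 18 counts of libraries with a member detected, 17 kept within 1.5 times with exon counts, 12 with detection from 1 read, 11 at equal depth and 18 without neurons 15 and 16. With medians at or near 0 RPM for most members, depth and the number of neurons limit what a missing call can show.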
